A study of Mus musculus with 6 samples.

Results

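The genes described here are 8 transcription factors of the Snail, Zeb and Twist families: Snai1, Snai2, Snai3 and Scrt1, Zeb1 and Zeb2, and Twist1 and Twist2. They were chosen by symbol, and 7 of the 8 had a probe set annotated to that gene alone, among 22180 genes measured in this way. Each of these 7 genes had 1 probe set. Zeb2 had none of its own and is treated apart.

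RNA was measured in livers of 6 male C57BL/6J mice, 1 array per mouse. The 3 Con mice were Slug f/f, carrying a floxed Slug gene, the usual name for Snai2. The 3 HKO mice were littermates in which the floxed gene was combined with albumin-CreERT2, a tamoxifen-inducible recombinase under the albumin promoter, which is active in hepatocytes, so other liver cells keep the gene. The sources used here do not say whether Con mice carried the recombinase, how it was induced, or which exons are floxed. Both groups ate a high fat diet (60% of its calories came from fat) for 11 weeks, starting when the mice were 8 weeks old. All values are log2 array values made by the authors with RMA, and the comparison asks how these factors and the genes around them differ when hepatocytes lack Slug during high fat feeding. In the fits below p-values set the group difference against the spread between these 6 mice. The fits were made with limma, which draws each gene's variance toward a value estimated from all genes in the fit. The SE of a change and its interval use that same variance.

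Snail factors are zinc finger repressors that bind E-box sequences, recruit chromatin-modifying enzymes, and switch off E-cadherin and other epithelial genes. Zeb factors, which combine zinc fingers with a homeodomain, and Twist factors, which are basic helix-loop-helix proteins that dimerise with E proteins, act on many of the same genes. The 3 families are best known for driving the epithelial to mesenchymal transition. In liver they are studied in fibrosis and cancer, and Slug in hepatocytes also in lipid synthesis.

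The site that Snail factors prefer is the E-box CAGGTG, which reads CACCTG on the other strand. It was searched on both strands in windows from 250 bases before to 50 after each start site in a RefSeq promoter table of the build GRCm38.p6. Of 32851 windows, 20.2% held it, and of 16990 genes with both a window and an array value, 22.3% did. Of the family genes, 4 had a window (Snai1, Zeb2, Twist1 and Twist2), and Snai1 held the motif. The bases upstream of Snai1 are printed because it is the family gene that held the motif, and a stretch upstream of Krt8 because it had the lowest p of the epithelial genes described further down. Capitals mark the E-box, which begins 126 bases before the start site in Snai1 and 111 bases before it in Krt8. The Snai1 stretch is chr2:167537945-167538194 on the plus strand and the Krt8 stretch chr15:102004431-102004470 on the minus strand. A match is a run of letters, and binding was not measured.
Snai1: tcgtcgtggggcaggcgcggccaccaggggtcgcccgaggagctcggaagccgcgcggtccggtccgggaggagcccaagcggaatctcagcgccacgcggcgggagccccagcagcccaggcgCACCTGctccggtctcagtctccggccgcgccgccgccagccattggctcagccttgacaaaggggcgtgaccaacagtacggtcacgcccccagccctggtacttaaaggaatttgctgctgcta
Krt8: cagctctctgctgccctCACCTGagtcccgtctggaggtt

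Of the 7 measured factors, Snai2 fell in HKO livers, 0 rose and 6 did not pass the threshold of adjusted p 0.05 in limma with Benjamini-Hochberg adjustment over all genes. Over all 22180 genes 0.203% passed, 0.0902% higher and 0.113% lower. Snai2 is the gene the study removed, so its fall checks the labels. Array values of HKO and Con did not overlap for Snai2, which was lower in HKO, and for Twist1, which was higher. Over all genes 18.2% did not overlap, 8.05% with HKO above Con and 10.1% with HKO below. At an unadjusted p under 0.05 stood 3 of the 7, namely Snai2, Snai1 and Twist1, beside 11.9% of all genes (5.31% higher and 6.56% lower). Snai2 is in this count through its deletion. Snai1 was lower and Twist1 higher in HKO. Snai1 lay below and Twist1 near the background mark described further down. The mean was lower in HKO for 5 of the 7, Snai2 among them, and higher for 2, while of all genes 51.8% had a lower and 48.2% a higher mean.

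**Figure D1:**
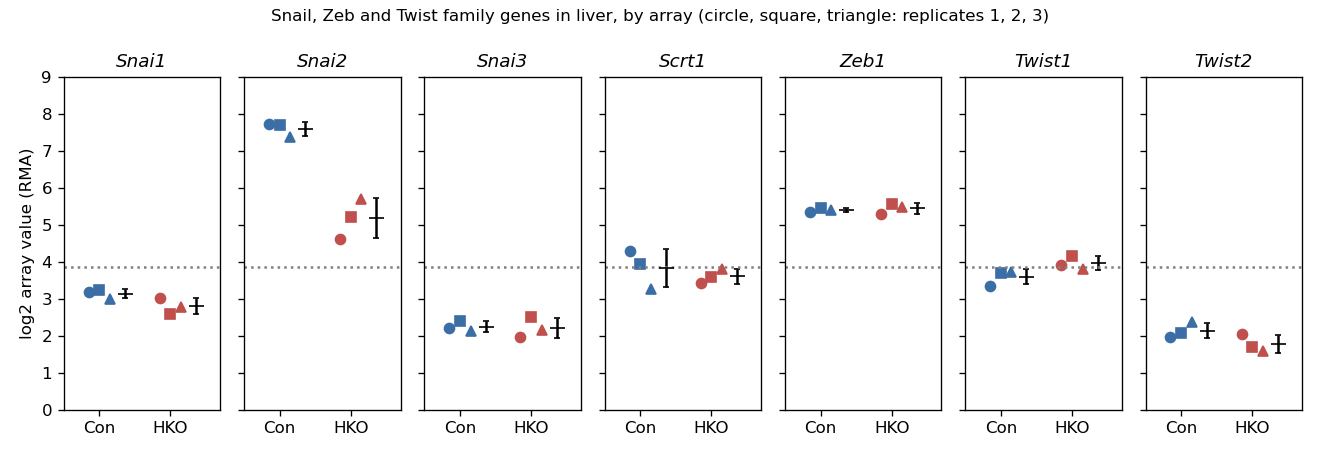
Log2 array value (vertical axis) of each of the 7 measured family genes in the 3 Con arrays (blue) and 3 HKO arrays (red), with the mean and SD of each group in black. The dotted line is 3.85, the 95th percentile of olfactory receptor genes, and Snai2 is the gene whose groups lie far apart, at a mean of 7.61 in Con and 5.18 in HKO.

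Snai2 had log2 values of 7.74, 7.69 and 7.39 in the Con arrays and of 4.62, 5.23 and 5.69 in the HKO arrays. The groups stood apart, with HKO replicate 1 lowest and HKO replicate 3 highest among the HKO mice. Con averaged 7.61 ± 0.19 (SD, n = 3), against 5.18 ± 0.54 (SD, n = 3) for HKO. The log2 change was -2.43 ± 0.25 (SE), its 95% interval ended at -1.86 on the side of 0, and the adjusted p in limma was 0.0145. By size of decrease it ranked 6 and by p-value 12 among the 22180 genes. The range was 0.35 within Con and 1.08 within HKO, so HKO mice differed more from each other than Con mice did, a difference that was not tested. In whole liver, fewer cells of a type and less RNA per cell cannot be told apart, nor can signal from other cells and from transcript left in hepatocytes. Snai2 missed the limma threshold when Con replicate 1 was left out (change -2.36, adjusted p = 0.0758), and likewise Con replicate 2 (-2.39, 0.0927) and HKO replicate 2 (-2.45, 0.0621).

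For Snai2 an exact two-sided permutation test returned p = 0.1, and no smaller value is possible with 3 mice a group. The log2 changes of the other 6 measured factors lay between -0.35 and 0.37.

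Most of the relatives gave dim signals. As a mark for background, the 1088 olfactory receptor genes, which liver is not known to use, had a median log2 value of 2.14 and a 95th percentile of 3.85, a mark chosen after the values were seen. Snai2 and Zeb1 were above it on all 6 arrays. Snai1, Snai3 and Twist2 were below it on every array, so these genes are not shown to be above background. Their log2 changes and intervals below describe array signal and are not read as changes in expression. Twist1 was above it on 0 of 3 Con and 2 of 3 HKO arrays, and Scrt1 on 2 of 3 Con and 0 of 3 HKO arrays.

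Snai1 encodes Snail, the founding repressor of the family. Its log2 values were 3.17, 3.24 and 3.004 in Con and 3.03, 2.58 and 2.79 in HKO. The groups overlapped through HKO replicate 1, which lay above Con replicate 3. The change was -0.34 (95% interval -0.65 to -0.02, limma adjusted p = 0.395).

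Snai3, the remaining Snail factor, known mainly from muscle and blood cells, had values of 2.21, 2.41 and 2.12 in Con and 1.97, 2.50 and 2.16 in HKO. HKO mice held both the highest and the lowest value. Its change of -0.04 had an interval from -0.39 to 0.31 (limma adjusted p = 0.944), and it was 0.04 without Con replicate 2 and 0.08 without HKO replicate 1.

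Scrt1 encodes Scratch, a Snail-related repressor of the nervous system. Its values were 4.30, 3.95 and 3.27 in Con and 3.42, 3.60 and 3.82 in HKO. All HKO values lay within the Con range, and the Con range of 1.02 was wide. The change was -0.23 (interval -0.78 to 0.33, limma adjusted p = 0.768). Without Con replicate 1 it was 0.00089.

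Zeb1 encodes a zinc finger and homeodomain repressor of E-cadherin that is expressed in mesenchymal cells and T cells. Its values were 5.34, 5.45 and 5.41 in Con and 5.29, 5.58 and 5.48 in HKO, so the Con values lay inside the HKO range. Con averaged 5.40 ± 0.05 (SD, n = 3), against 5.45 ± 0.15 (SD, n = 3) for HKO. The change of 0.05 had an interval from -0.21 to 0.30 (limma adjusted p = 0.907), and it was -0.02 without HKO replicate 2. Changes of Zeb1 beyond about 0.30 in either direction thus lay outside the 95% interval.

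Zeb2, the other Zeb factor, which is abundant in macrophages and stellate cells, was covered by 2 probe sets that the annotation shares with another gene, so their values are not assigned to Zeb2. The probe set shared with the microRNA gene Mir5129 had values of 5.98, 6.14 and 5.92 in Con and 5.96, 6.10 and 5.99 in HKO. These overlapped, with a change of 0.0058 and an interval from -0.26 to 0.27 (limma adjusted p = 0.992 over 41345 probe sets). The probe set shared with the antisense gene Zeb2os stood at means of 2.60 and 2.46, with a change of -0.14 and an interval from -0.46 to 0.17 (limma adjusted p = 0.790).

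Twist1 encodes a helix-loop-helix factor of mesenchymal development. Its values were 3.36, 3.70 and 3.73 in Con and 3.92, 4.17 and 3.82 in HKO. All 3 HKO mice lay above all 3 Con mice, although HKO replicate 3 was close to Con replicate 3. The change was 0.37 (interval 0.04 to 0.70), and it did not pass, with a limma adjusted p of 0.372. Its values lie near the background mark, and in the 16 alternative settings that measured it the change was positive, with an adjusted p from 0.219 to 0.632.

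Twist2, a close relative of Twist1 found in dermis and other connective tissue, had values of 1.96, 2.07 and 2.36 in Con and 2.06, 1.69 and 1.59 in HKO. HKO replicate 1 lay among the Con mice and the other two below them. The change was -0.35 (interval -0.72 to 0.01, limma adjusted p = 0.435).

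**Figure D2:**
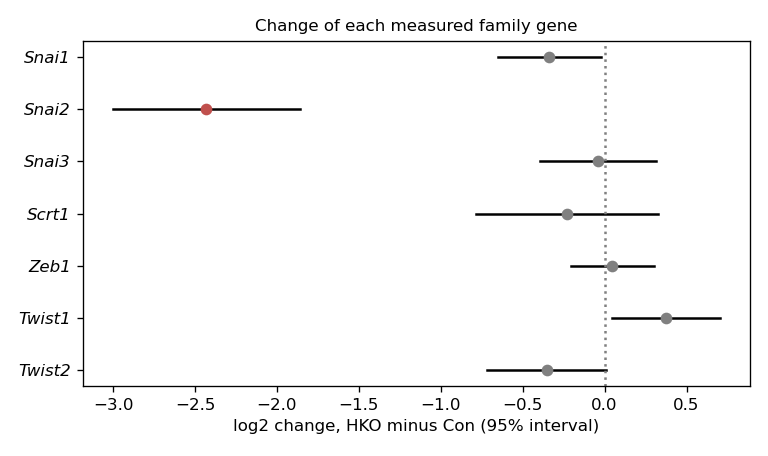
Log2 change from Con to HKO (horizontal axis) of the 7 measured family genes with the 95% interval from limma. Snai2 (red, adjusted p 0.0145) is at -2.43, and the other 6 (grey, not past the threshold) lie between -0.35 and 0.37.

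The genes closest to Snai2 across the 6 arrays were found by the root mean square difference between log2 values, each gene centred on its own mean. Tubb2a, a beta tubulin, was closest at 0.254. Anxa2, a calcium-dependent membrane-binding protein, followed at 0.304, then the interferon-inducible Ifi27l2b at 0.348, the surface protein Ly6d at 0.390, and Slc22a27, of an organic ion transporter family, at 0.446. Since Snai2 differs mainly between the groups, this measure picks genes with a decrease of like size. Tubb2a, Anxa2 and Ly6d fell in limma (adjusted p = 0.000356, 0.00094 and 0.000156), while Ifi27l2b (-2.09, 0.126) and Slc22a27 (-1.58, 0.0691) did not pass. Ifi27l2b had values of 6.64, 6.76 and 6.74 in Con and 3.54, 4.76 and 5.56 in HKO. Its HKO mice were spread more widely than those of Snai2, and in both genes HKO replicate 1 was lowest and HKO replicate 3 highest. Ly6d held 4.86, 4.79 and 4.95 in HKO, with little spread.

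**Figure D3:**
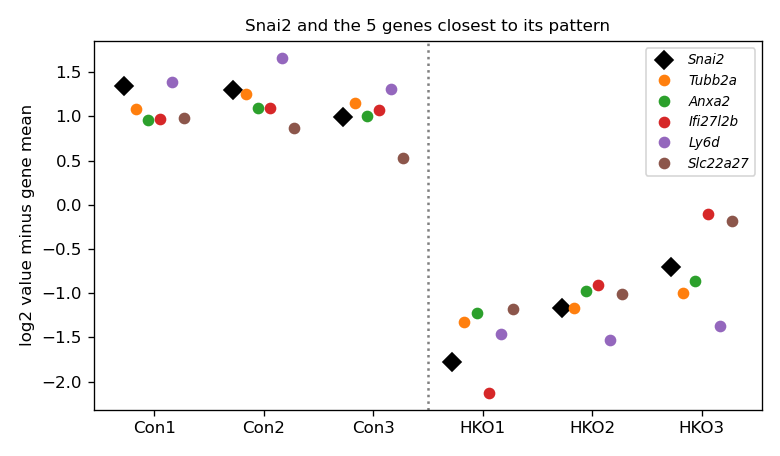
Log2 value minus the gene's mean over 6 arrays (vertical axis) for Snai2 (black diamonds) and the 5 genes with the smallest root mean square difference from it. Every gene is above its mean in the 3 Con mice and below it in the 3 HKO mice, and Ly6d varied least among the HKO mice.

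Factors that work with these families were read from fixed lists. In every list the genes past the threshold stand against 0.0902% of all genes higher and 0.113% lower in HKO. The counts at an unadjusted p under 0.05 stand against 5.31% higher and 6.56% lower, and the means against 48.2% higher and 51.8% lower. Twist factors pair with E proteins, and Id proteins block that pairing by binding E proteins without contacting DNA. Of these 7 genes, 0 passed in limma, and at an unadjusted p under 0.05 stood 1 higher and 1 lower. Id2 had a mean of 8.84 in Con and 9.53 in HKO, a change of 0.69 ± 0.24 (SE, adjusted p = 0.333). Its groups overlapped. Tcf3, which encodes the E proteins E12 and E47, was at -0.27 (adjusted p = 0.395), with all HKO values below all Con values, and Id4 was at 0.28 (0.532). Of 8 further Snail-related and helix-loop-helix relatives 0 passed in limma, and 6 lay below the background mark on average. Hand1, a heart and placenta factor, was at 0.41 (adjusted p = 0.206), the only 1 of the 8 with an unadjusted p under 0.05. Tcf15 was at -0.37 (0.466) and Scx at 0.21 (0.559).

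Epithelial genes, the classic targets of Snail repression, went both ways. Of 30 measured, 0 passed in limma, 17 had higher and 13 lower means in HKO, and at an unadjusted p under 0.05 stood 4 higher and 2 lower. On average 8 of the 30 lay below the background mark. Their median change was 0.03, beside -0.0081 over all genes. Cdh1, which encodes E-cadherin, had values of 5.34, 5.76 and 5.98 in Con and 6.61, 6.65 and 5.90 in HKO. HKO replicates 1 and 2 were above every Con mouse and HKO replicate 3 was not. The change was 0.70 ± 0.23 (SE, limma adjusted p = 0.311), while a second, dim Cdh1 probe set stood at 0.10. Cldn3, a tight junction claudin, was at 0.36 ± 0.10 (adjusted p = 0.245). Krt8, a keratin of simple epithelia with the E-box printed above, went the other way, at -0.49 ± 0.10 (adjusted p = 0.115). Array values of both genes did not overlap between groups.

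The E-box was common in this list. Its genes are the classic targets of Snail repression, so a high share is not an independent result. Cdh1 had no promoter window and is not counted here. Of 20 epithelial genes with both a promoter window and a value, 13 held the E-box (65%), against 22.3% of all such genes. Of these 13, 5 had a higher mean in HKO, and their median change was -0.09, beside -0.0005 for those without the motif. Of 11 mesenchymal genes with a window, Sparc, a collagen-binding matrix protein, held it.

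Mesenchymal genes, which accompany high Snail, Zeb or Twist in other tissues, mostly had lower mean values in HKO. Of 22 measured, 1 fell in limma, 0 rose and 21 did not pass. On average 6 of the 22 lay below the background mark. At an unadjusted p under 0.05 stood 0 higher and 11 lower, beside 5.31% and 6.56% of all genes. The mean was lower for 16, the values did not overlap for 13, all of them lower, and the median change was -0.36. Over all genes 10.1% had all HKO values below all Con values. Col1a2, which encodes a type I collagen chain, fell by 0.98 on the log2 scale (limma adjusted p = 0.0415), a call lost when any 1 of the 6 arrays was left out (adjusted p from 0.0758 to 0.176), and its second, dim probe set stood at -0.18. Col1a1, the other chain, was at -1.32 ± 0.19 (adjusted p = 0.0533) and the membrane protease Mmp14 at -0.62 ± 0.13 (0.133). Fn1 (0.08) and Cdh2 (0.06), named after their values were seen as the list's fibronectin and N-cadherin, had small positive changes. Both are among the 6 genes of this list with a higher mean, while 16 had a lower one.

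Markers of the cells that could carry these genes were read beside them. Of 12 stellate cell markers, whose cells make most liver collagen, 0 passed in limma and at an unadjusted p under 0.05 stood 0 higher and 4 lower, beside 5.31% and 6.56% of all genes. The mean was higher for 3 and lower for 9, and array values did not overlap for 1 higher and 5 lower, beside 8.05% and 10.1%. The mean level over the list ran from 6.44 to 6.71 in Con and from 6.32 to 6.48 in HKO, and Pdgfrb (-0.73), Colec11 (-0.47) and Lum (-0.78) had adjusted p between 0.223 and 0.278. The 3 with a higher mean were Ecm1 (0.20, with all HKO values above all Con values), Des (0.05) and Lrat (0.03), the retinol-esterifying enzyme of these cells. Of 12 Kupffer cell and macrophage markers 1 fell, Itgax, from 4.44 to an HKO mean of 3.42 that is below the background mark (limma adjusted p = 0.0280; 0.0621 to 0.149 without 1 array). The mean was higher for 3 and lower for 9, and at an unadjusted p under 0.05 stood 0 higher and 4 lower. C1qa was at -0.47 and Cd68 at -0.40. The 3 higher means were those of Clec4f (0.20, with all HKO values above all Con values), Timd4 (0.12) and Vsig4 (0.04). Marco (-0.54) and Cd5l (-0.39), also markers of Kupffer cells, had lower means with overlapping values, so these markers went both ways. The genes with higher means in these 2 lists, and Marco and Cd5l, are named after their values were seen. The list's mean level ran from 6.41 to 6.74 in Con and from 6.18 to 6.44 in HKO.

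Of 9 hepatocyte markers 0 passed in limma, with Cps1 at 0.27 (1 higher and 0 lower at an unadjusted p under 0.05), Apoa1 at 0.15 and Hnf4a at 0.12. The mean was higher for 7 and lower for 2. All 9 lay above the background mark, and the list ran from 10.3 to 10.4 in Con and from 10.3 to 10.5 in HKO. Ass1 was the dimmest and most spread, at 4.31, 5.48 and 4.95 in Con and 5.82, 5.21 and 3.91 in HKO. Its spread enters the list's mean level. Of 10 endothelial markers 0 passed in limma, with 0 higher and 3 lower unadjusted (Lyve1 -0.57, Pecam1 -0.29, Cdh5 -0.30). The mean was higher for 5 and lower for 5, and the list ran from 7.60 to 7.67 in Con and from 7.50 to 7.56 in HKO. Of 9 T and NK cell markers 0 passed, with 1 lower unadjusted. The mean was higher for 1, Cd4 (0.38), and lower for 8, among them Klrb1c (-0.55) and Cd8a (-0.30). On average 7 were below the mark, and the list ran from 3.20 to 3.77 in Con and from 3.296 to 3.38 in HKO. Of 5 cholangiocyte markers 0 passed and 0 had an unadjusted p under 0.05. The mean was higher for 1, Krt19 (0.14), and lower for 4, among them Krt7 (-0.30) and Epcam (-0.14). On average 3 were below the mark, and the list ran from 3.83 to 3.85 in Con and from 3.61 to 3.85 in HKO. The part of these shifts in the values of the family genes was not tested.

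Among upstream signals and protein turnover factors 0 genes passed. Of 22 measured genes of TGF-beta, Notch, Wnt, hypoxia and other inputs that induce Snail factors, 0 passed in limma, with 0 higher and 2 lower at an unadjusted p under 0.05 and a median of -0.07. Tgfb3, a TGF-beta ligand, was at -0.36 (adjusted p = 0.360), the Notch target Hes1 at -0.47 (0.364) and the Hippo pathway coactivator Wwtr1 at -0.22 (0.461). Of 10 measured genes for the phosphorylation and degradation of Snail and Slug proteins, 0 passed and 0 had an unadjusted p under 0.05. The kinase Gsk3b, which marks Snail for degradation, was at -0.18 (adjusted p = 0.574), the ubiquitin ligase subunit Fbxw7 at -0.16 (0.603) and the kinase Prkd1 at -0.20 (0.630).

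**Figure D4:**
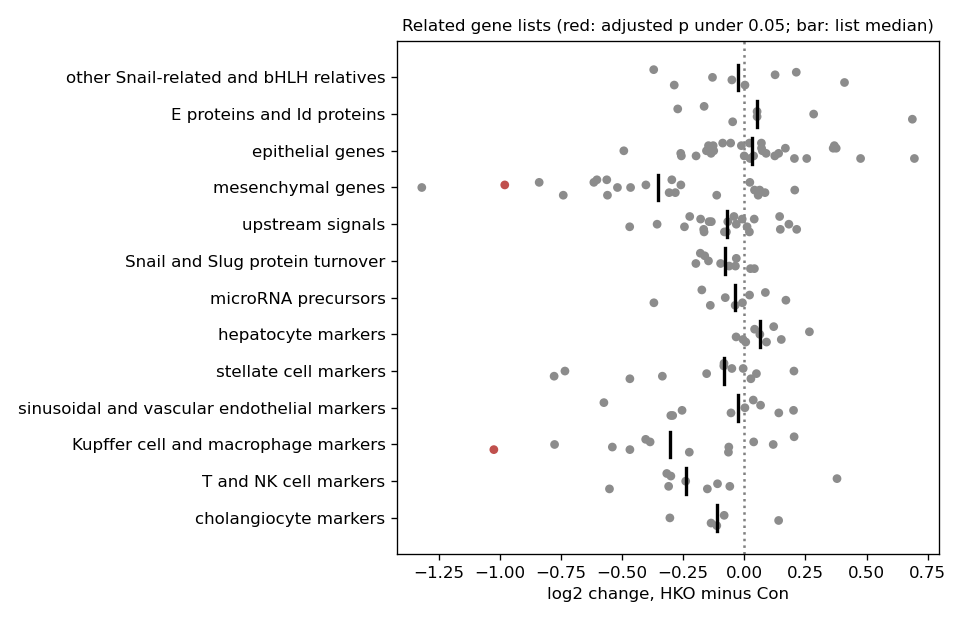
Log2 change from Con to HKO (horizontal axis) of each measured gene in the 13 lists, with red for adjusted p under 0.05 and a black bar at each list's median. Mesenchymal genes have a median of -0.36 and epithelial genes of 0.03, and Col1a2 and Itgax are the 2 red points.

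MicroRNAs hold these factors down after transcription. The miR-200 family and miR-205 target Zeb1 and Zeb2, miR-34 targets Snai1, and miR-203 targets Snai2. The mature strands known for this are printed from RefSeq (GRCm38.p6), with the seed, bases 2 to 8, in capitals, to show which of them share a seed. The miR-200 family falls into 2 seed groups that differ by 1 base, and miR-34a and miR-34b share theirs.
miR-200b-3p: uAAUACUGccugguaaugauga
miR-200c-3p: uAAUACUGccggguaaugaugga
miR-429-3p: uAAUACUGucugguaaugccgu
miR-200a-3p: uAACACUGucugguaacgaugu
miR-141-3p: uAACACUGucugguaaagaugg
miR-205-5p: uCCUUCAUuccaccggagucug
miR-34a-5p: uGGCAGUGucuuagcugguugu
miR-34b-5p: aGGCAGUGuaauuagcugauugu
miR-203-3p: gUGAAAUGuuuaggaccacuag

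The array reads precursor transcripts of these genes, not the mature strands. Of 9 measured, 0 passed in limma, 1 had an unadjusted p under 0.05 (Mir34c, -0.37, adjusted p = 0.326), and 7 lay below the background mark on average. Mir34a, above the mark on all 6 arrays, had values of 4.29, 4.52 and 4.24 in Con and 4.24, 4.02 and 4.26 in HKO. These overlapped, with a change of -0.17 (adjusted p = 0.630). Mir34b, also above it, was at -0.04. Mir203 was at 0.02, Mir200a at -0.0077, Mir200b at 0.17, Mir200c at -0.08, Mir141 at -0.14 and Mir205 at 0.09. Mir34c is among the dim precursors, so its values of 2.91 in Con and 2.54 in HKO are not shown to be above background.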

How the data were processed

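Per the submitters' processing notes the authors used RMA in R 3.3.0, and each deposited log2 value belongs to 1 probe set on 1 array. The array design's build and any filter are not given here. RMA equalises the arrays' distributions and compresses changes of dim genes. Of 41345 probe sets the platform annotation gave 1 gene to 23521, several to 1814 and none to 16010. Of the 23521, 23328 matched a RefSeq gene table through their Entrez identifiers and 0 symbols changed. Each gene was read from its probe set with the highest mean, with no filter on low values, which gave 22180 genes. HKO and Con were compared with limma 3.58.1 in R 4.3.3 (lmFit, eBayes), two-sided, with Benjamini-Hochberg adjustment. Intervals are limma's at 95%. Single values used exact permutation tests (scipy 1.17.1). The fit was checked on simulated data. Correlations between arrays over genes were 0.989 to 0.992 within and 0.986 to 0.988 across groups, medians over genes were 3.95 on all arrays, and precision is limited by how few arrays there are.

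The family genes and the 13 lists were chosen with earlier results of these data known. Genes named are all family genes, in each list those past the threshold and the 3 with the lowest p, and the 5 closest to Snai2 with predicted genes passed over. Others are named for their role or their values, after values were seen: Mir34b, Mir200a, Mir200b, Mir200c, Mir203, Mir205, Sparc, Fn1, Cdh2, Ecm1, Des, Lrat, Clec4f, Timd4, Vsig4, Marco, Cd5l and Ass1. The planned difference between Snai2 and the mean of its relatives is not reported, since the deletion fixes it and several relatives are not shown to be above background. Alternatives tried were repeated quantile normalization, centring, 2 filters on dim genes, 3 ways of handling probe sets, array weights, robust and trended variances, a block for replicate numbers, another threshold, and leaving out each array.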

Additional observations from a re-analysis of the deposited data

How the results depend on the processing

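Snai2 was lower in HKO under all 17 alternatives run for it, its log2 change running from -2.69 when HKO replicate 3 was left out to -2.15 when HKO replicate 1 was. Its adjusted p missed 0.05 under 4 of them, the 3 left-out arrays named in the results and the replicate number as a block (-2.43, adjusted p = 0.0540). Correlations of same-numbered deviations were 0.0323, 0.016 and 0.0214, and each array correlated best with its own number. The labels do not say whether same-numbered mice were paired. These small correlations, from deviations centred within groups of 3, cannot decide it. With every single-gene probe set tested, the adjusted p of Snai2 was 0.015. The count of genes past the threshold, 45, was 139 with genes above the median only, 215 with a variance trend, 111 with genes above the olfactory receptor level only (chosen after seeing the data), 115 at adjusted p 0.10, 3 with the replicate block, and 4 to 32 without 1 array. The filters test fewer genes and the left-out fits use fewer arrays, while the variance trend and the block keep all genes and arrays. What drives the differences in these counts was not tested. Of all list genes 2 passed, and this was 6 with a variance trend, 4 above the olfactory receptor level, 1 with the mean of all probe sets, 0 with the block and 0 to 0 without any 1 array. The direction of 3 dim or level genes turned without 1 array: Scrt1 (from -0.51 to 0.00089 over the 6 left-out arrays), Snai3 (from -0.19 to 0.078) and Zeb1 (from -0.015 to 0.13). Snai1, Twist1 and Twist2 kept direction and did not pass in any alternative that measured them. Of 638 results for named list genes, 616 kept direction and side, 15 lost and 7 gained a call, and 0 reversed.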

Other observations

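Over all genes with a promoter window and an array value, the share of genes called and the median change were set beside the number of E-boxes CAGGTG in the window, as a description with no test. Of 13194 genes without the motif, 0.152% passed in limma (8 higher and 12 lower in HKO), with a median change of -0.01. Of 3223 genes with 1 motif, 0.217% passed (5 higher and 2 lower), with a median of -0.0012. Of 573 genes with 2 or more, 0.349% passed (0 higher and 2 lower), with a median of -0.0049. The counts of called genes are small.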
